A study of Drosophila melanogaster with 19 samples.

Results

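Resting potential channel genes and the HCN channel gene were followed across sorted neuron types of the Drosophila melanogaster optic lobe, which processes vision. They are 8 genes named by their FlyBase symbols, out of 17558 genes in the deposited count table: Ih, Irk1, Irk2, Irk3, Task6, Task7, Ork1 and sand. The series held 17 single types: T1, T2, T3 and T5 of the T class, the lamina-projecting C2, C3, Lawf1 and Lawf2, the medulla types Mi1, Dm2, Dm8 and Dm12, and the transmedullary Tm2, Tm3, Tm9, Tm5ab and Tm5c. It added optic lobe neurons sorted without regard to type as the control, and a line marking T1 and Tm1 cells together. Flies were 3-day to 6-day adults in every group. The labels' protocols state that lines with Gal4 in the wanted cells were crossed to UAS-Red Stinger, a red nuclear reporter, before sorting by fluorescence, whereas the series text gives GFP for the T1 and Tm1 line. The driver lines are not named, so each group is whatever cells 1 driver marked. Each of the 19 groups had 3 libraries, 57 in all, listed under 1 sample per group. A p-value here reflects how far libraries of 1 sample spread, and that spread may be technical.

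A neuron at rest is held near the potassium equilibrium by channels that are open without a stimulus. Tandem-pore (K2P) potassium channels carry much of this leak, and inward rectifiers (Kir) pass potassium most readily near and below rest. HCN channels work against them, opening on hyperpolarization to let in a depolarizing cation current, and cyclic nucleotides ease their opening. Many optic lobe neurons signal with graded potentials, which ride on such resting conductances.

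Ih (FBgn0263397, 2R:14276130-14300095, plus strand) encodes the HCN channel of the fly. Task6 (FBgn0038165, 3R:13667046-13674542, minus strand) and Task7 (FBgn0037690, 3R:9410329-9412293, minus strand) encode TASK-type tandem-pore subunits, named for the acid-sensitive mammalian channels. Ork1 (FBgn0017561, X:10878054-10891250, minus strand) encodes an open-rectifier tandem-pore channel, and sand (FBgn0033257, 2R:8091696-8096948, plus strand) one known from sleep-promoting neurons. Irk1 (FBgn0265042, 3R:23168317-23185642, plus strand), Irk2 (FBgn0039081, 3R:23513617-23519445, minus strand) and Irk3 (FBgn0032706, 2L:18711071-18713748, minus strand) encode the inward rectifiers. Coordinates are those of the Ensembl annotation of BDGP6. In it, 61.0% of the exon bases of Irk1 also belonged to CG46310 on the same strand, a gene without a row in the table. How such shared reads were counted is not stated, so the level of Irk1 is uncertain. Irk3 shared 10.8% of its exon bases with Grip71, and sand 7.94% with uno, both on the other strand.

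Reads in genes ran from 0.602 M (M for mega) to 72.7 M per library, with a median of 21.8 M. Levels below are counts per M reads scaled by the trimmed mean of M-values (CPM, TMM), as mean ± SD over n = 3 libraries. The T2 libraries stood apart. Summed, they held the fewest reads of any type, the median gene lay 1.24 lower in T2 on the log2 scale, and the median shift ran from -2.11 to 0.63 across 5 sets of genes of rising exon length. Labels were checked on markers: bsh was highest in Mi1, Gad1 in C3, VGlut in Dm8, and eya in Lawf2. T1 kept elav (537 ± 31.8 CPM) and nSyb (2056 ± 43.9) within the range of the other types, but held brp, an active zone gene, at 18.0 ± 8.96 CPM against 1234 to 4032 elsewhere, and Eaat1, a glutamate transporter gene of glia, at 32113 ± 4546.

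The 8 genes fell into 3 of high and 5 of low level. Ih, Task6 and Task7 were read in every library, at median type levels of 2523, 219.6 and 138 CPM. Irk1, Irk2, Irk3, Ork1 and sand had median type levels from 0.139 (Irk1) to 1.85 (Ork1), and no type mean of any of them passed 17.4 CPM. Across the 17 types, 6 of the 8 genes varied (edgeR quasi-likelihood F test, Benjamini-Hochberg adjusted p under 0.05), where 90.9% of all tested genes did. Irk3 (adjusted p = 0.138) and sand (adjusted p = 0.224) did not pass. The between-type SD of log2(CPM + 1) was 1.23 for Task6, 0.93 for Ork1 and 0.85 for Ih, against a median of 0.67 over all tested genes. Task7 was the steadiest of the 8 at 0.32.

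With each type set against the mean of the other 16, 20 combinations of gene and type passed an adjusted p of 0.05 and a log2 change of 1. Of these, 15 were higher, 11.0% of all combinations against 14.2% over all tested genes, and 5 were lower, 3.68% against 5.81%. T1 had 4 (24.0% of tested genes passed there), T2 had 3 (41.0%), C2 had 3 (28.7%), and 7 types had none.

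**Figure D1:**
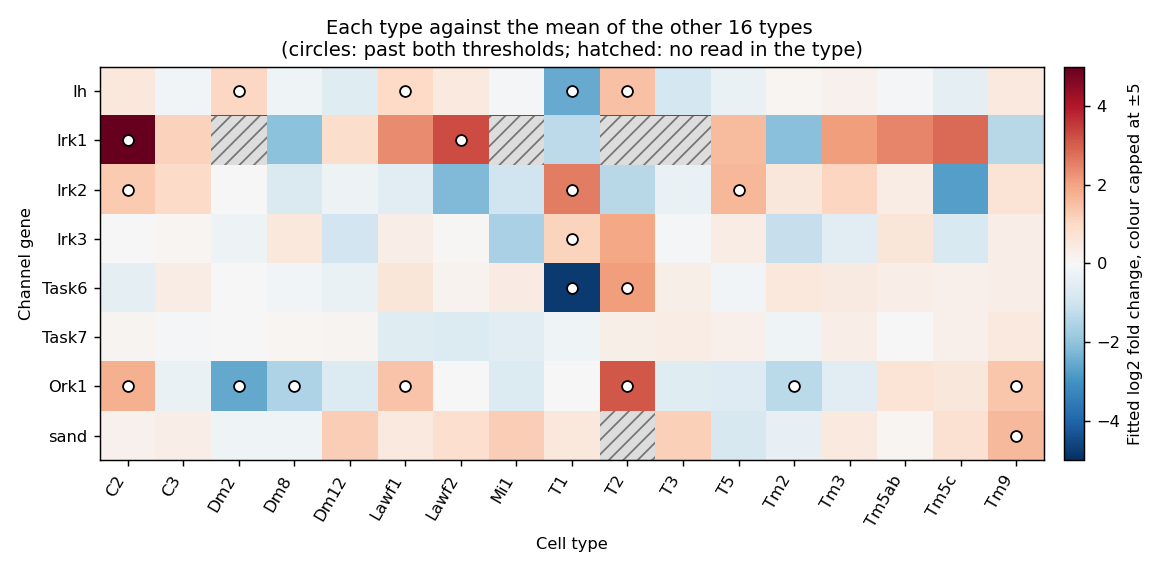
Fitted log2 fold change of each channel gene (rows) in each of the 17 types (columns) against the mean of the other 16, with the colour capped at ±5, white circles on the 20 combinations past both thresholds and grey hatching in place of a colour where a type had no read. Among the coloured cells, Task6 in T1 and Irk1 in C2 are the deepest, and the Task7 row is nearly blank.

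Per kb of exon, Ih was the highest of the 8 genes in most types. Its order of type means ran T2, Dm2, Lawf1, C2, Lawf2, Tm9, Tm3, Tm2, Mi1, Tm5ab, C3, Dm8, T5, Tm5c, Dm12, T3 and T1. At the top, T2 libraries read 8857, 5028 and 6620 CPM, Dm2 libraries 6389, 4940 and 4449, and Lawf1 libraries 5065, 5437 and 4862. These 3 types overlapped one another in their libraries. At the bottom, T1 libraries read 444, 532 and 575 CPM, below every library of the other types, the next being T3 at 1271, 1462 and 1720.

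T1 held 517 ± 66.4 CPM of Ih, 2.51 lower on the log2 scale than the other types (log2 change -2.51, SE 0.16, adjusted p = 5.82e-19, edgeR). Between neighbours in the order, only T3 and T1 differed past both thresholds (1.52 on the log2 scale, adjusted p = 9.08e-10), and Lawf1 stood above C2 at adjusted p = 0.0351 with a log2 difference of 0.45. The other 14 neighbouring pairs did not pass an adjusted p of 0.05. Over all pairs of types, 49 passed for Ih (36.0%), where 26.6% did over all tested genes, and 23 of the 49 involved neither T1 nor T2.

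Ih was higher in T2 (6835 ± 1923 CPM), Dm2 (5259 ± 1008) and Lawf1 (5121 ± 292), with log2 changes of 1.45 (SE 0.11, adjusted p = 4.62e-16), 1.05 (SE 0.12, adjusted p = 1.76e-10) and 1.004 (SE 0.12, adjusted p = 1.79e-10). With 12.7 kb of exon, Ih is among the long genes, which read higher in T2, and the T2 value dropped to 0.33 once a trend on exon length was taken out of the fold changes. The Dm2 and Lawf1 values lie at the log2 threshold, and taking out the same trend gave 0.95 and 0.78. The Dm2 call was lost under 5 of 12 alternatives and the Lawf1 call under 8 of 12, among them leaving out the first Dm2 library (0.82) and each Lawf1 library in turn (0.81 to 0.91).

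Against sorted neurons, Ih was the only one of the 8 genes called (1 of 8, where 22.3% of tested genes were called). Sorted neurons read 1126, 1193 and 1231 CPM, below every type library except those of T1. The mean of the types was 1.17 higher on the log2 scale (SE 0.15, adjusted p = 4e-09, edgeR). The glia marker sum stood at 415 to 688 CPM in sorted neurons, with a mean of 561. Outside T1, the type with the highest mean was C2, at 352 (270 to 429). The 6 glia markers other than Eaat1 and nrv2 summed to 73.3 to 94.1 CPM in sorted neurons. That lay inside the range over libraries of the single types (18.0 in Mi1 to 176 in T1). The part of such cells in the difference was not tested. Without the second library of sorted neurons, 2 of the 8 genes were called. In bulk samples, fewer cells with a transcript and less of it per cell cannot be told apart.

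**Figure D2:**
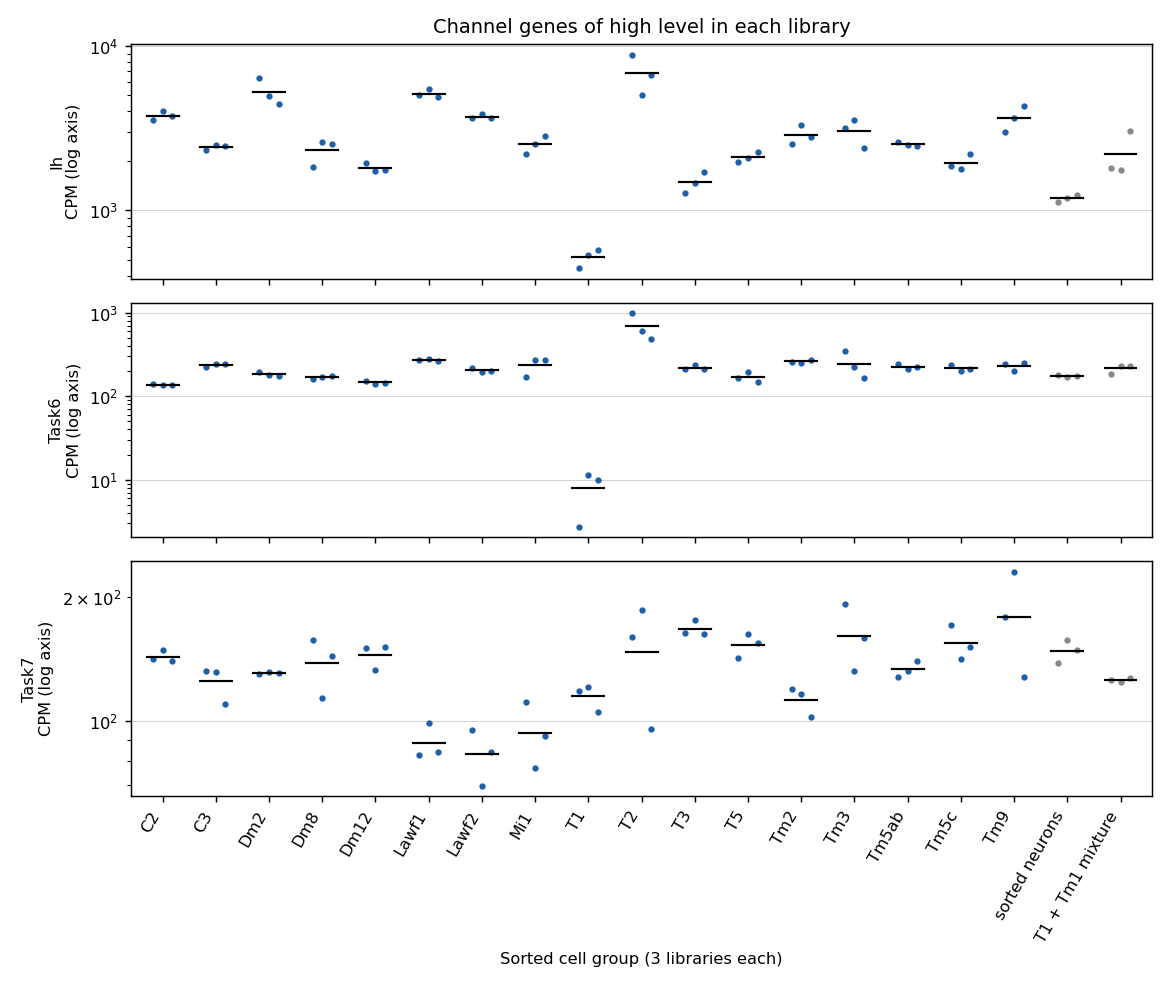
CPM (log axis) of Ih, Task6 and Task7 in each of the 57 libraries (points) by sorted group, with the mean of 3 libraries as a bar, types in blue and the other groups in grey. T1 is the lowest type for Ih and for Task6, T2 the highest for both, and Task7 spans 82.9 to 179 CPM.

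Task6 and Task7, whose products are tandem-pore subunits of the same kind, had unlike patterns. Task6 was even over most of the types: 15 of them lay between 138 ± 3.19 CPM (C2) and 269.6 ± 6.60 (Lawf1). T2 stood above, with libraries at 980, 595 and 486 CPM, and T1 far below, at 2.73, 11.4 and 10.1. Neither overlapped any library of another type. The T1 library with 2.73 CPM had 56 reads of Task6, and the others had 256 and 231.

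In T1 the Task6 mean of 8.05 ± 4.66 CPM was 4.77 lower on the log2 scale than in the other types (log2 change -4.77, SE 0.24, adjusted p = 1.53e-23). C2, the type next above it, had 17.1 times the T1 mean (log2 difference 4.08, adjusted p = 2.99e-19). T2, at 687 ± 260, was higher by 2.097 (SE 0.14, adjusted p = 1.48e-18) and had 2.55 times the mean of Lawf1, the next below. Every one of the 31 pairs of types that passed for Task6 (22.8%) involved T1 or T2.

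Task7 ran from 82.9 ± 12.8 CPM in Lawf2 to 179 ± 51.2 in Tm9. T1 libraries read 118, 121 and 105, inside the range of the other types. No type passed both thresholds against the rest, no neighbours in the order differed, and 3 pairs of types passed (2.21%): Lawf2 below T3 and below Tm9, and Lawf1 below Tm9. Its log2 change in T1 was not called, where that of Task6 was.

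Divided by exon length, which lets genes be compared, Ih was the highest of the 8 in 16 of 17 types, with a median of 198 CPM per kb against 80.1 for Task7 and 44.5 for Task6. T1 was the exception, with Task7 at 66.5 ± 4.90 CPM per kb, Ih at 40.6 ± 5.22 and Task6 at 1.63 ± 0.94. By type means, Task7 exceeded Task6 in 15 of 17 types, and the median ratio over the 17 was 2.03. Libraries disagreed in Mi1, among the 15, with ratios of 1.86, 0.805 and 0.972. They also did in Lawf1, not among the 15, with 0.871, 1.03 and 0.913. The ratio was lowest in T2 (0.613), and highest outside T1 in C2 (2.97). In the T1 libraries it was 123, 30.4 and 29.9. The other 5 genes together reached at most 5.29 CPM per kb (T2).

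Among the inward rectifiers, Irk1 was read mainly in C2. C2 libraries had 7.001, 6.56 and 4.77 CPM of Irk1, from 167, 167 and 140 reads. No library of another type passed 1.45 CPM, and 29 of the 51 type libraries had no read. Lawf2, the next type, had 0.714, 0 and 1.45 CPM, and the C2 mean of 6.11 ± 1.18 was 8.47 times its mean. Dm2, Mi1, T2 and T3 had no read of Irk1, which allows up to 0.049, 0.0628, 0.47 and 0.0405 CPM at 3 counts over the group. Such limits cover counting error only.

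The difference of C2 from the other types passed (adjusted p = 8.87e-17, edgeR), and all 16 pairs with C2 passed. Its fitted log2 change of 6.56 depends on how the zeros are treated. C3, which shares a name stem with C2 and was highest for Gad1, had 0, 0 and 0.466 CPM (log2 difference 5.09, adjusted p = 4.63e-07). The glia marker sum stood at 270 to 429 CPM in C2, mostly nrv2 (228 ± 36.6), above the 40.2 to 236 of the other types outside T1, and 0 of its 8 genes were at 0. The hemocyte marker sum of C2 was 111.7 to 114.7 CPM, mostly Ppn, below that of Dm8 (160 to 178). In C2, 4 of 8 glia markers (nrv2, moody, Gat and wrapper) were called higher and 0 lower. Hemocyte markers were called higher there for 3 of 4 (Ppn, Hml and srp) and lower for 0. Of all tested genes, 22.3% were higher in C2 and 6.37% lower. The part of such cells in the Irk1 level was not tested. The call of Irk1 in Lawf2 (adjusted p = 0.00917) rested on few reads: without the third library or with DESeq2 it was lost.

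Irk2 was highest in T1, with libraries at 2.15, 4.93 and 5.44 CPM (4.17 ± 1.77), against a median type mean of 0.829. The highest libraries of T5, Tm3, Tm9, Tm5ab and others reached above the lowest of T1. It was 2.58 higher on the log2 scale in T1 (SE 0.43, adjusted p = 7.05e-07), and 14 of the 16 pairs with T1 passed. Calls in T5 (2.31 ± 1.25 CPM, adjusted p = 0.00367) and C2 (1.81 ± 0.791 CPM, adjusted p = 0.0329) were both lost with DESeq2.

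Irk3 had low and uneven libraries. T1 had 2.39, 4.89 and 3.22 CPM, and the T2 mean of 2.84 came from 1 library at 8.52 with both others at 0. The higher value in T1 (log2 change 1.12, SE 0.44, adjusted p = 0.0346) was lost without the second T1 library, without the third library and with DESeq2.

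**Figure D3:**
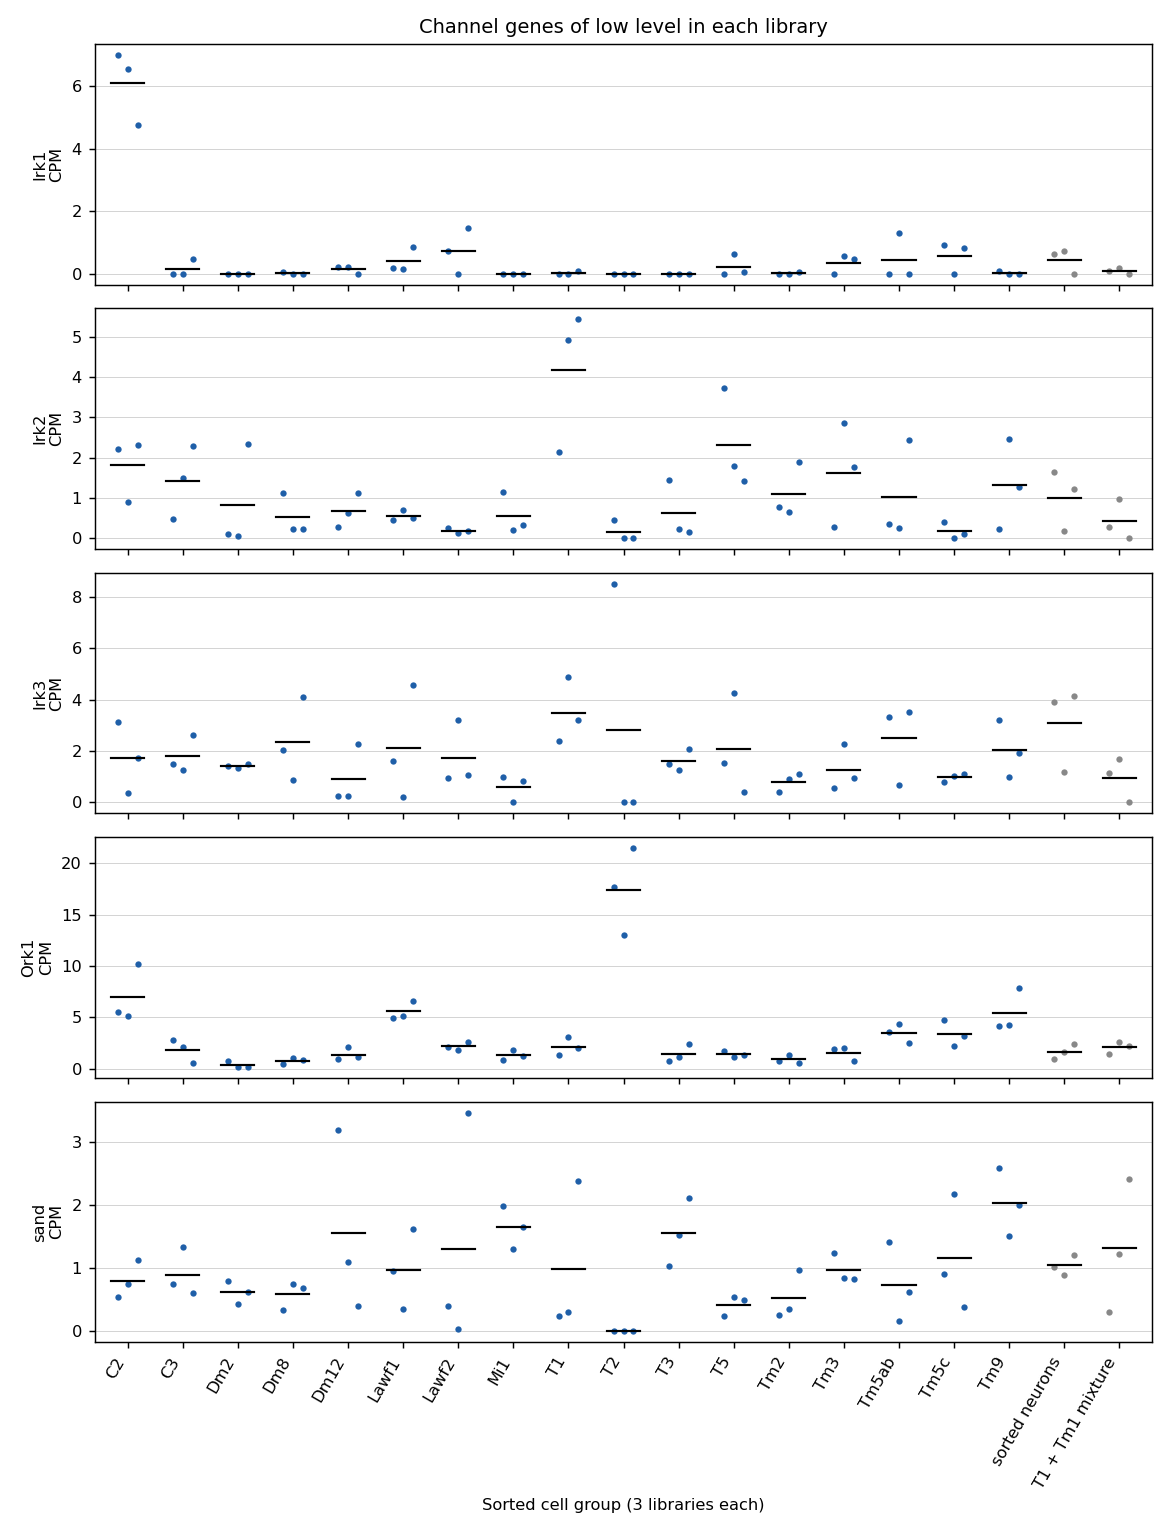
CPM (linear axes, each gene on its own scale) of Irk1, Irk2, Irk3, Ork1 and sand in each library (points) with means of 3 libraries as bars, types in blue and the other groups in grey. C2 stands clear of all groups for Irk1 and T2 for Ork1, while the libraries of most groups overlap for Irk2, Irk3 and sand.

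Ork1 told more types apart than any other of the 8 genes: 69 pairs of types passed (50.7%), 48 of them with neither T1 nor T2. T2 libraries had 17.7, 13.0 and 21.4 CPM, from 81, 18 and 9 reads, above every other library. C2 libraries had 5.53, 5.11 and 10.2, Lawf1 libraries 4.995, 5.17 and 6.62, and Tm9 libraries 4.16, 4.29 and 7.87, and these 3 types overlapped. Dm2 was lowest, at 0.756, 0.240 and 0.208.

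Against the other types, Ork1 was higher in T2 by 3.11 on the log2 scale (SE 0.49, adjusted p = 2.21e-07), in C2 by 1.78 (SE 0.23, adjusted p = 4.41e-09), in Lawf1 by 1.42 (SE 0.30, adjusted p = 7.18e-05) and in Tm9 by 1.39 (SE 0.26, adjusted p = 2.29e-05). It was lower in Dm2 (log2 change -2.57, SE 0.55, adjusted p = 2.09e-04), Dm8 (-1.54, adjusted p = 0.00847) and Tm2 (-1.35, adjusted p = 0.0163). The Tm9 value fell to 0.97 without the third library, the Dm8 call was lost without its first library, and the Tm2 call without its first library, without library 3 or without T2. Some types of one name stem differed and others did not pass the test. C2 stood above C3 (1.85 ± 1.12 CPM; log2 difference 1.98, adjusted p = 4.36e-05), and Lawf1 above Lawf2 (2.22 ± 0.365 CPM; log2 difference -1.34 for Lawf2 minus Lawf1, adjusted p = 0.00652), while Tm5ab minus Tm5c (log2 difference 0.14, SE 0.41, adjusted p = 0.867) and T3 minus T5 (0.04, SE 0.52, adjusted p = 1.0) did not pass.

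sand stayed at or under 2.04 ± 0.542 CPM, its level in Tm9, and 1 pair of types passed (0.735%). T2 had no read, which allows 0.47 CPM. The call of sand in Tm9 (log2 change 1.63, adjusted p = 0.0265) was lost under 7 of 12 alternatives, leaving out any of its 3 libraries among them.

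Sets of types were compared with limma, each type entering once as the sum of its libraries. Of the 8 genes, 0 differed between glutamate types (Dm8, Dm12 and Tm5c) and acetylcholine types, where 0.0796% of tested genes did, and 0 had an unadjusted p under 0.05. Between Tm and Dm types 0 were called (0.0% of tested genes), and 2 had an unadjusted p under 0.05: Task6 was 0.47 higher in Tm types on the log2 scale (SE 0.20, adjusted p = 0.781) and Ork1 1.58 higher (SE 0.70, adjusted p = 0.781). With a prior count of 0.5, with DESeq2 size factors and with no filter on low counts the number called was again 0.

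The T1 and Tm1 mixture was set against T1, a comparison that adds Tm1 cells. Of the 8 genes, 3 were called, where 29.9% of tested genes were. Mixture libraries read 1816, 1752 and 3028 CPM of Ih and 185, 232 and 232 of Task6, all above the T1 libraries. Ih was higher by 2.09 on the log2 scale (SE 0.19, adjusted p = 1.37e-13), and Task6 by 4.73 (SE 0.26, adjusted p = 4.18e-21). Irk2 was lower, at 0.277, 0.962 and 0 CPM (log2 change -3.29, SE 0.69, adjusted p = 1.06e-04, and 0.0502 with the earlier quasi-likelihood method of edgeR). Task7, at 126 ± 1.42 CPM, differed by 0.13 (SE 0.17, adjusted p = 0.636). Among the single types, T1 was lowest for Ih and Task6 and highest for Irk2. Adding cells of most other types would move these 3 genes in the directions seen, so the calls are not particular to Tm1. The glia marker sum ran from 799 to 4658 CPM in the mixture against 28784 to 37371 in T1, and nearly all of it in T1 was Eaat1 alone. The 6 glia markers other than Eaat1 and nrv2 summed to 29.7 to 37.8 CPM in the mixture and 110.2 to 176 in T1. C2 (81.5 to 163) and T5 (112 to 117) overlapped the T1 range. Against the other types, 4 of the 8 glia markers were called higher in T1 (Eaat1, alrm, Gs2 and Gat) and 0 lower. Of all tested genes, 13.9% were higher there and 10.2% lower. The part of glia in the differences between the mixture and T1 was not tested.

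The other tandem-pore genes were taken as a list. Of the 8 symbols listed, CG9194 matched no row under that name, and the 7 genes tested all varied across types. In T1, 4 of the 7 were higher and 0 lower, with a median log2 change of 2.57, where 13.9% of all tested genes were higher and 10.2% lower. CG1688 had 689 ± 62.2 CPM in T1 and at most 430.4 in another type (log2 change 5.52, adjusted p = 4.42e-34). CG42594 had 735 ± 21.3 in T1 and at most 361 elsewhere (5.27, adjusted p = 2.15e-43). CG42340 had 734.5 ± 4.98 in T1 (2.57, adjusted p = 1.4e-26) and more in Dm8, at 1048 ± 73.2, and Lawf1, at 791 ± 48.2. CG34396 was read at 0.0145 CPM in T1 and peaked in Tm5ab at 7.45 ± 3.37. No function beyond the channel family is given here for these genes. CG1688 shared 29.5% of its exon bases with an antisense RNA gene, and reads of both cannot be told apart.

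Summed per kb over the 11 tandem-pore genes measured, T1 had the highest level of the types, 489 ± 21.1 CPM per kb, with libraries from 470 to 512. No library of another type passed 429 (T2), and the median type had 167. Task6, Task7, Ork1 and sand made up 14.1% of this sum in T1. Their share was 34.3% in Dm8, 43.0% in Lawf1 and 49.3% in T5, had a median of 74.3% over the types, and reached 91.3% in T3. T1 thus had the lowest Task6 of the types and the highest summed tandem-pore level.

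**Figure D4:**
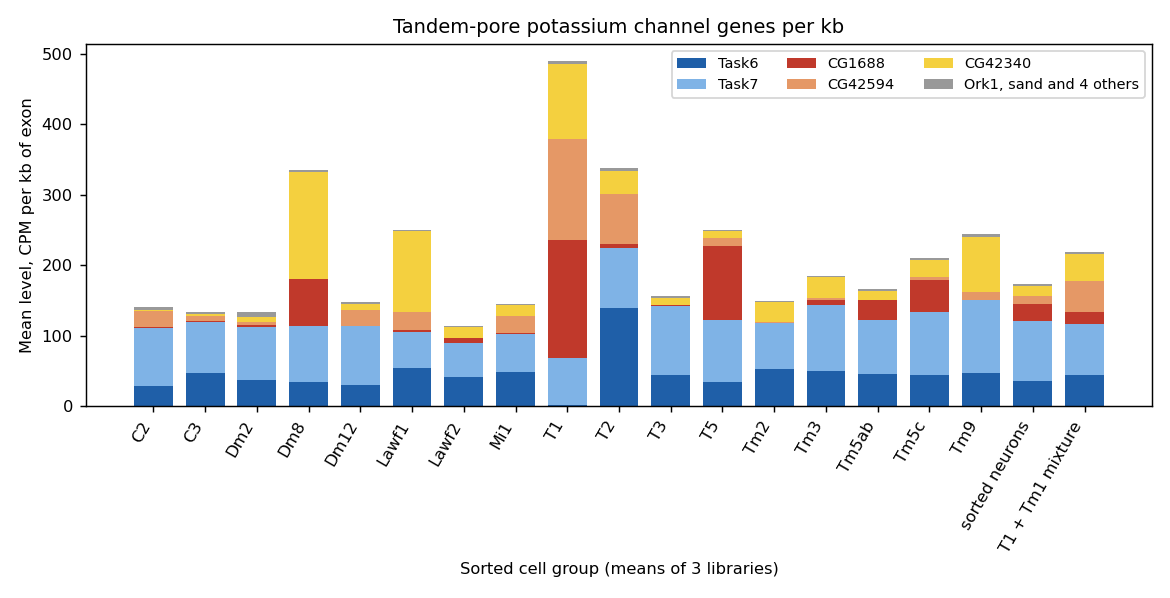
Mean level per kb of exon of the tandem-pore potassium channel genes, stacked, in each sorted group (means of 3 libraries, bars from 0). The T1 bar, at 489 CPM per kb, is mostly CG1688, CG42594 and CG42340, with 1.63 from Task6, while Task6 and Task7 make up most of the bar in T3, C3 and Dm2.

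Genes that bear on the same currents were counted in the types where the channel genes stood apart. Ih shares its cyclic nucleotide-binding design with the cyclic nucleotide-gated channels, of which 2 of 4 were lower in T1 and 0 higher (10.2% and 13.9% of tested genes): Cngl (42.9 ± 12.8 CPM, log2 change -4.65, adjusted p = 1.36e-23) and CG42260 (9.21 ± 2.18 CPM, -5.33, adjusted p = 1.48e-25). CngA peaked in Lawf2 (305 ± 20.3 CPM), Cngl in Lawf1 (7614 ± 652), CngB in Dm12 (97.7 ± 18.4) and CG42260 in Tm2 (860.2 ± 79.5). Among adenylate cyclases and the phosphodiesterase gene dnc, which make and break down cAMP, 2 of 6 were higher in T1 (Ac3 and dnc) and 3 lower (rut, Ac13E and Ac76E), against the same shares of tested genes. rut had 114 ± 17.0 CPM in T1, against 1589 ± 198 in Lawf2, its highest type. Ac76E peaked in Lawf1 (338 ± 24.3) and Ac78C in T3 (264 ± 64.0).

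Voltage- and calcium-gated potassium channel genes, which repolarize cells, were lower in T1 for 5 of 11 and higher for 0 (10.2% and 13.9% of tested genes), with a median log2 change of -0.83. Shab was at 10.8 ± 8.45 CPM (log2 change -6.10), SLO2 at 10.1 ± 7.34 (-4.83) and eag at 6.79 ± 6.85 (-4.45), and these 3 peaked in T2. KCNQ had 5.70 ± 1.12 CPM in T1 and peaked in Tm2 (1642 ± 305). Of the NALCN sodium leak channel complex, 1 of 3 was higher in T1 (unc79, 1914 ± 45.1 CPM), while na (364 ± 9.65) and unc80 (860.4 ± 83.9) did not pass. Of 4 sodium pump genes tested, 0 were called in T1. There Atpalpha, the catalytic subunit, had 9584 ± 207 CPM (log2 change 0.08), nrv3 6191 ± 298 (0.40), nrv2 48.5 ± 17.3 (0.27) and nrv1 0.0325 ± 0.0563.

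**Figure D5:**
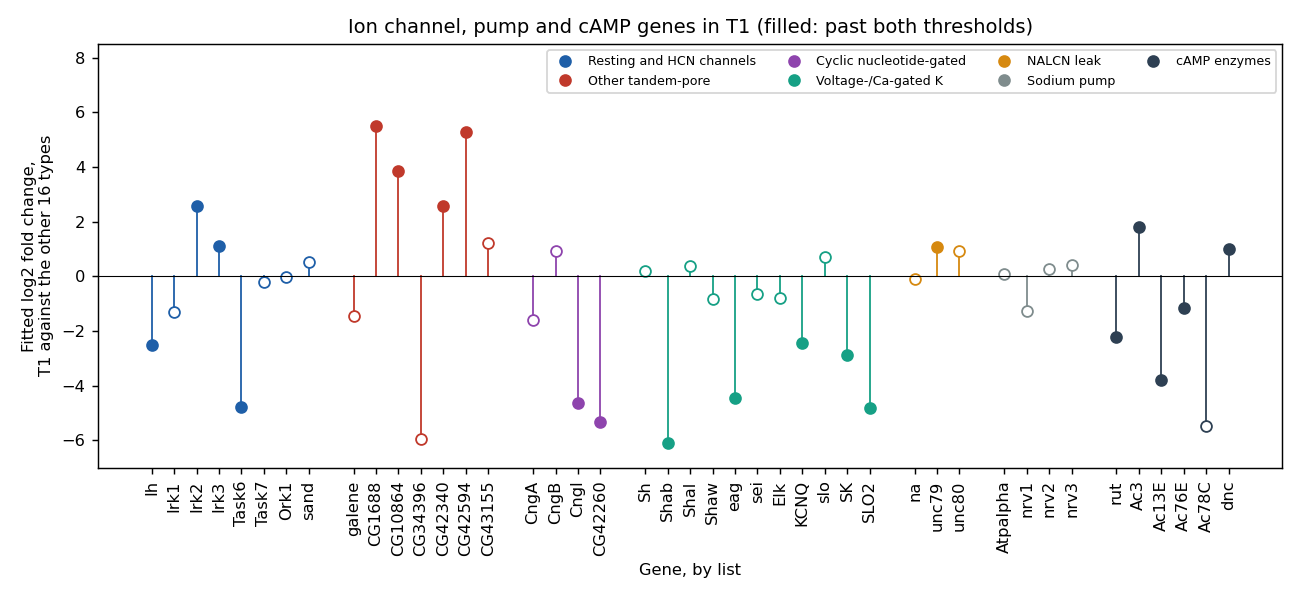
Fitted log2 fold change of T1 against the other 16 types for the 8 resting and HCN channel genes and 6 lists of related genes, filled where both thresholds were passed. Among filled points, Ih, Task6, 5 voltage- and calcium-gated potassium channel genes, 2 cyclic nucleotide-gated channel genes and 3 adenylate cyclase genes lie below 0. Filled points above 0 are Irk2, Irk3, 4 other tandem-pore genes, unc79, Ac3 and dnc. Open points far below 0 (CG34396, Ac78C) have few reads in T1.

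In T2, 8 of 11 voltage- and calcium-gated potassium channel genes were higher and 1 lower (18.5% and 22.5% of tested genes), beside the higher Ih, Task6 and Ork1, and 2 of 3 NALCN complex genes were lower. Exon length moved with level in T2, as given above. In C2, 3 of 7 other tandem-pore genes were higher and 2 lower (22.3% and 6.37% of tested genes), and 2 of 4 cyclic nucleotide-gated genes were lower. In Dm2, where Ork1 was lowest and Ih high, 4 of 11 voltage- and calcium-gated potassium channel genes were higher and 0 lower (9.96% and 2.91% of tested genes).

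Levels of pairs of the 8 genes were correlated over the 17 types as a description, on log2(CPM + 1). The points share scaling and depth. Ih and Task6 gave r = 0.80, 0.52 without T1 and 0.15 without T1 and T2, so the likeness rested on those types. Irk2 and Task6 gave r = -0.70, and -0.17 without T1 and T2. Task6 and Task7 gave r = 0.11.

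The genes most like each member over the 17 types, among 6898 that reached 20 CPM in some type, were named by their Pearson r. For Task6 they were Gbs-76A (r = 0.91), Hr38 (0.88) and brp (0.87). All 3 were lowest in T1, where they had 2.55, 11.7 and 18.0 CPM, and without T1 their r was 0.60, 0.59 and -0.001. For Ih they were FBgn0259234, which has no symbol in the name table (r = 0.86), tej (0.83) and CG15382 (0.82), each highest in T2 and lowest in T1. For Irk1, with no read in 29 of 51 type libraries, they were CG3457 (0.95), CG5611 (0.94) and CG42390 (0.93), each highest in C2. By ranks of the types (Spearman rho), these 3 genes gave 0.547, 0.705 and 0.392 with Irk1. For Ork1 they were CG32107 (0.85), CG34112 (0.85) and Mccc1 (0.83), each highest in T2. For Task7 they were dpr9 (0.83), CG7379 (0.82) and emc (0.75). For Irk2, Irk3 and sand, of low level, the closest genes were Kr-h2 (0.80), Df31 (0.75) and Ctl1 (0.81).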

How the data were processed

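RNA of sorted cells was made into cDNA with SMART-Seq v4 and into libraries with Nextera XT, per the labels' protocols. The submitters' processing notes name BDGP6 as the build and list HTSeq 0.6.1, STAR 2.5.2 and Trimmomatic 0.32. These kits do not mark strand, and whether counting used strand is not given in the sources used here. The authors deposited read counts for each gene, not normalized. Reads outside any gene made up 40.5% to 49.2% of a library and were left out, with the other summary lines. Libraries held 0.602 to 72.7 M (mega) reads in genes. No 2 libraries of a group agreed within sampling noise (chi-square over degrees of freedom from 12.5 to 292 in 57 pairs), so none were merged, and each library was taken as a unit. This does not show that they are independent samples.

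Tests used edgeR 4.0.16 under R 4.3.3, with filterByExpr (12569 genes, all 8 members among them) and TMM scaling. Robust quasi-likelihood fits with adjusted deviances had 1 coefficient per group. That method was taken after both of edgeR's methods had been run. SE is the absolute log2 change over the square root of F. The threshold was an adjusted p of 0.05, with an absolute log2 change of 1 for single types and pairs of types. limma 3.58.1 on summed libraries compared sets of types. DESeq2 1.42.0 was an alternative. Python 3.11.15 with pandas 2.3.3 and matplotlib 3.10.9 made sums and figures. The test scripts were tested on simulated data.

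Levels per kb use union exon lengths of Ensembl gene models, which may differ from those counted. Likeness used type means of log2(CPM + 1). All 8 members are named, the 3 genes most like each (fewer for those of low level), and up to 4 genes of widest spread per list; other genes of the lists named in the text were chosen after their values were seen. Members and lists were chosen with earlier results of these data known. The symbols CG9194 (tandem-pore channels), Nlf-1 (NALCN complex) and wupA (muscle markers) matched no row of the count table. Whether those genes stand there under other symbols is not settled here. Alternatives were DESeq2 and its size factors, no filter on low counts, a library-number block, leaving out each library, T2 or libraries under 5 M reads, and taking out an exon-length trend; leaving out T1 and the earlier method of edgeR were added after seeing the data.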

Additional observations from a re-analysis of the deposited data

Results flagged for a closer look

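Among the 5 Tm types, Irk2 in Tm5c was flagged as an outlier on summed log2 CPM. Its summed libraries gave -2.74 as log2 CPM (value -2.735), from 4, 0 and 2 reads, and the gap to the next Tm type took 0.80 of the range of the 5 types, past Dixon's critical value of 0.71. All 8 genes were checked this way, and chance marks about 1 in 20 such groups. By the edgeR pair tests, Irk2 in Tm5c differed from Tm3 (adjusted p = 0.0292). It did not pass against Tm2 (0.0758), Tm5ab (0.142) or Tm9 (0.0602). Outside the Tm types, Lawf2 (0.179 CPM) and T2 (0.146) had means near that of Tm5c (0.168).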

How the results depend on the processing

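Of 24 single calls, 12 held under every alternative tried for them: Ih and Task6 in T1 and in the mixture, Ih against sorted neurons, Task6 in T2, Irk1 in C2, Irk2 in T1, and Ork1 in T2, C2, Lawf1 and Dm2. Calls of gene and type numbered 16 to 20 over the alternatives that keep all libraries (16 with DESeq2) and 18 to 22 when each library was left out in turn; pair calls numbered 181 to 204 and 195 to 209. The F test called 6 to 7 genes, the mixture 3 to 4 (2 with the earlier edgeR method), and sorted neurons 1 to 2, each library left out in turn; 2 came without the second library of sorted neurons. The likeness of brp to Task6 turned to -0.001 without T1. Size factors of DESeq2 lowered Tm9 levels by 0.12 on the log2 scale (a shift of -0.125) and moved the other types by at most 0.08. Library numbers showed no clear pairing of libraries. For 513 pairs with one number in 2 groups, the median correlation of deviations was 0, against 0.001 for unlike numbers. Of the 513, 19 were over 0.1, a count not taken for unlike numbers. Of 57 libraries, 23 correlated best with their own number. The replicate block gave 6, 20, 204, 1 and 3 calls for the F test, types, pairs, sorted neurons and mixture. T2 depth limits what 0 reads can show there (0.47 CPM), and levels of a few CPM rest on few reads.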
